A study of Daphnia magna with 22 samples.

Results

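The count table of this study lists gene models of the water flea Daphnia magna by protein ID, and some IDs stand on many rows. The gene models described here are the 164 rows whose ID starts with KZ, stands on 5 or more rows and whose mean level over all 22 libraries was at least 1 CPM (counts scaled so that each library sums to 1e6). They belong to 86 IDs, out of 14657 rows and 9831 IDs in all. There were 273 IDs on 5 or more rows, with 3255 rows between them, of which 1884 had no count in any library and 1207 had counts but a mean below the limit. The rows were thus chosen by their measured mean level, so their levels are given as a description. The limit averaged all groups, so a row could pass through its level in 1 clone alone, and 58 of the 164 rows were below 1 CPM on average in GB or in IL. The rows nearest the limit were KZS09240_3 (1.002 CPM) and KZS09240_2 (1.01 CPM) inside it, and KZS01251_1 (0.996 CPM) and KZS04649_3 (0.99 CPM) outside it. The number that ends a row's name counts the rows of its ID in the order of the table.

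Each library held the RNA of 1 adult female, taken just after laying and with the eggs removed. GB-EL75-69 (GB) and IL-M1-8 (IL) are clones that reproduce without mating, the first collected in London from a lake that holds water all year and the second in Jerusalem from a summer-dry pond. Control females received 400000 algal cells per mL per day and caloric restriction (CR) females 100000. Females of the other groups had the control diet and spent 2 hours a day in a bath of 2.5 mM beta-hydroxybutyrate (BHB, a ketone body) or 0.1 mM nicotinamide mononucleotide (NMN, a precursor of NAD+), while control and CR females spent this time in plain medium. There were 3 females per clone for control, CR and BHB and 2 per clone for NMN. Each genotype is represented by 1 clone, so the clone comparison is between these isolates. All animals of either clone go back to 3 females of its stock culture, and p-values measure the spread between the sequenced individuals.

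Duplicated genes are a known feature of Daphnia genomes. Copies of a gene can come to be used differently, and lineages of a species can gain, lose or silence copies independently. Several gene models that match 1 protein may also be pieces of a gene, alleles placed apart in an assembly, or copies of a mobile element. The table pairs no ID with a gene name and gives neither lengths nor sequences, so which of these a row is was not tested, and the tissue could not be set against markers. Reads from near-identical copies can be assigned to either copy, so values of single rows are uncertain where copies are alike. No 2 rows shared identical counts in this set (0 of 164).

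Library totals ranged from 8503141 to 14353733 counts. Control libraries had 12198335 to 14353733, CR libraries 10320588 to 12683059, BHB libraries 8503141 to 13627714 and NMN libraries 8672209 to 12333016 counts. The 164 rows took 0.46% of all counts on average, with 0.492% ± 0.0553 in the GB libraries and 0.428% ± 0.021 in the IL libraries (SD over 11 each). The ranges of this share overlapped, at 0.4 to 0.568% in GB and 0.394 to 0.467% in IL.

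The clone comparison asks how GB and IL differ across all treatments. Of the 164 rows, 118 differed between the clones (edgeR adjusted p under 0.05), 75 higher in GB and 43 higher in IL. Over all 4965 rows tested, 44.3% differed, 22.4% higher in GB and 21.9% higher in IL. At an unadjusted p under 0.05 there were 123 of the 164 rows and 50.8% of all rows, and DESeq2 called 119 of the 164 and 46.5% of all. The median size of the log2 difference was 1.13 among the 164 rows and 0.31 among all rows tested. Differences over 4-fold were called in 55 of the 164 rows, against 13.5% of all rows, and over 16-fold in 23, against 6.34%. In 62 of the 164 rows the 11 GB libraries did not overlap the 11 IL libraries (44 above and 18 below), against 14% of all rows. Rows held to the same mean limit gave lower backgrounds, with 8.99% over 4-fold, 4.33% over 16-fold and 13.3% without overlap among 4159 rows. A row with a mean just over the limit that is read in 1 clone only must differ, so the largest differences depend on that limit. Of the 106 rows at or above 1 CPM in both clones, a restriction chosen after seeing the data, 63 differed (59.4%), against 38% of 3773 rows held to the same. Among these 106 rows, 9 differed over 4-fold (8.49%), 1 over 16-fold (0.943%) and 20 did not overlap (18.9%). Among the 3773 rows these shares were 3.13%, 0.398% and 8.48%. The median size of the log2 difference was 0.55 in the 106 rows, against 0.22 for the 3773. All 118 called rows had the same sign within each of the 4 treatments, which the choice of rows by a fit over all treatments favours.

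**Figure D1:**
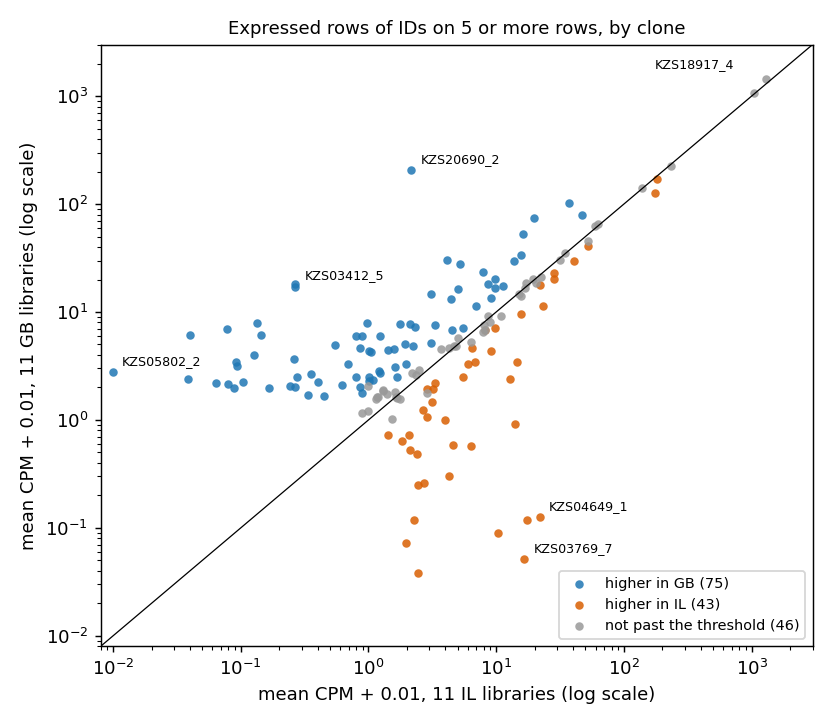
Mean CPM of the 164 rows in the 11 GB libraries against the 11 IL libraries, on log scales after adding 0.01, with the line of equal level. The 75 rows higher in GB and 43 higher in IL lie away from the line mainly at low levels, while KZS18917_4, the most abundant row, lies close to it.

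The share of rows that differed was set beside that of other KZ rows above the same limit. Among IDs on 1 row, 1206 of 3154 rows differed (38.2%), and among IDs on 2 to 4 rows 302 of 545 (55.4%), beside 118 of 164 (72%) for IDs on 5 or more. The median size of the log2 difference was 0.21, 0.49 and 1.13 in these classes. The classes also differed in level, with a median mean CPM of 63.4, 12.2 and 3.58, and in the spread between like-treated females, with a median biological coefficient of variation of 19.8%, 25.7% and 28.1%. The classes were also set side by side within narrow ranges of level. From 1 to 2 CPM, 38 of 52 rows (73.1%) differed among IDs on 5 or more rows. This was 56 of 96 (58.3%) among IDs on 2 to 4 rows and 86 of 229 (37.6%) among IDs on 1 row. At 20 CPM or more, the shares were 13 of 23 (56.5%), 106 of 229 (46.3%) and 765 of 2133 (35.9%) in the same order. The rows were not held to the limit in both clones here. These shares are descriptions of rows that are not independent, and the difference between the classes was not tested.

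The rows with the largest differences at 5 CPM or more higher in GB were KZS20690_2 and KZS03412_5. KZS20690_2 measured 162 CPM at the lowest, 209 at the median and 249 at the highest in GB, and 0.844, 1.71 and 7.58 CPM in IL. Every GB library lay above every IL library, by a log2 difference of 6.69 ± 0.291 (SE, n = 11 and 11, edgeR adjusted p = 3.59e-13). KZS03412_5 measured 14.3, 17.2 and 20.7 CPM in GB and 0, 0.182 and 0.577 CPM in IL, again with no overlap. Its log2 difference was 6.09 ± 0.311 (SE, edgeR adjusted p = 7.67e-13), and it was the only row of its ID with any count.

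The reverse was seen in rows nearly limited to IL. KZS03769_7 measured 9.99, 15.6 and 26.8 CPM in IL (lowest, median, highest) and 0, 0 and 0.118 CPM in GB, where 5 reads in all were counted against 2142 in IL. KZS04649_1 measured 13.6, 17.2 and 56.6 CPM in IL and 0, 0.0749 and 0.554 CPM in GB. Both lay higher in every IL library than in any GB library. Their log2 differences, given as GB minus IL, were -8.38 ± 0.337 and -7.43 ± 0.441 (SE, edgeR adjusted p = 2.69e-14 and 1.22e-11). The highest IL libraries of KZS04649_1 were the controls, at 25.7 to 56.6 CPM, beside 13.6 to 14.8 CPM in IL CR. The difference of this row between CR and control over both clones did not pass (log2 difference -1.22 ± 0.493 SE, edgeR adjusted p = 0.193).

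**Figure D2:**
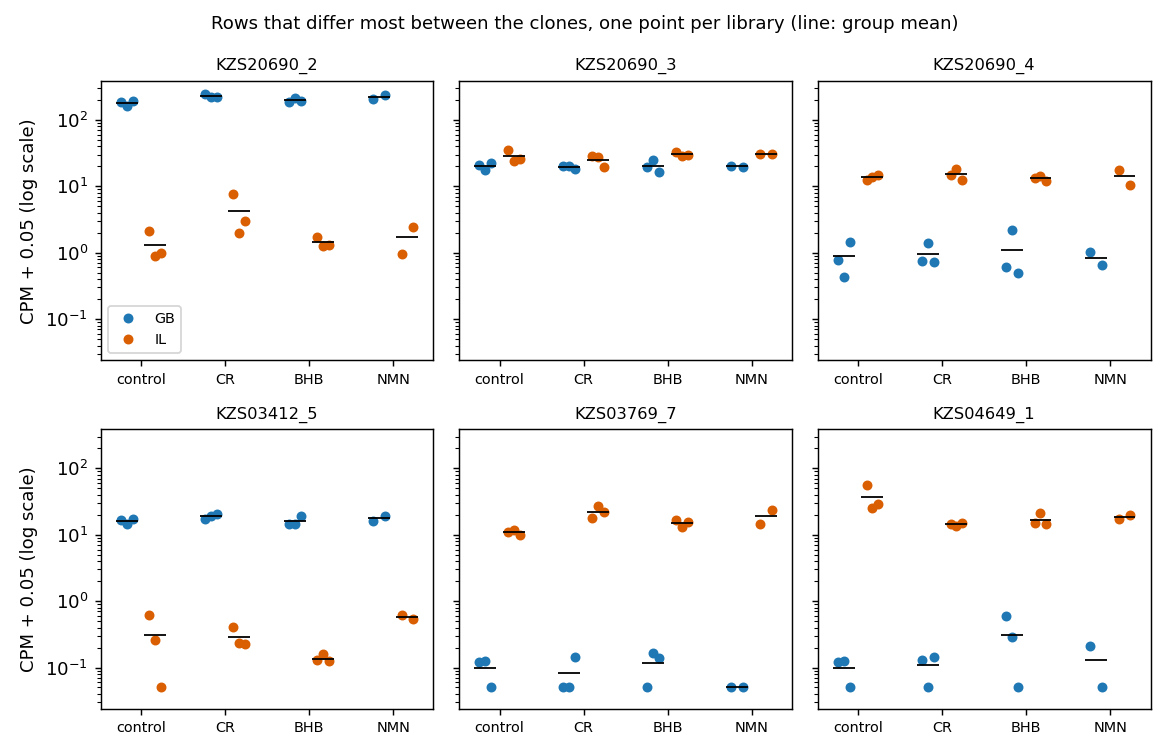
CPM after adding 0.05, on a log scale, of 6 rows in every library by treatment, GB in blue and IL in orange, with a line at each group mean. In KZS20690_2 and KZS03412_5 all GB points lie above all IL points, in KZS20690_4, KZS03769_7 and KZS04649_1 all below, and in KZS20690_3 the clones overlap.

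Of the 23 rows past 16-fold, 16 were higher in GB and 7 in IL. In 1 of them, KZS05802_2, no IL library had a read against 362 reads in GB, so the level was at least 119-fold higher in GB (3 reads over the IL libraries taken as the floor). The others had between 4 and 276 reads in all 11 libraries of the low clone.

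The division of an ID's reads among its rows was then followed. For the 57 IDs with 2 or more rows that passed the low-count filter, the row with most reads held a median of 75.2% of the reads of its ID in GB and 72.4% in IL. The same row led in all 22 libraries in 27 of the 57 IDs. Since the table gives no lengths, a share of reads is not a share of transcripts. Whether the clone difference of a row departed from that of the other rows of its ID was tested in each of the 57 IDs, and 39 passed (edgeR, adjusted p under 0.05 over 266 IDs, of which 41.4% passed). In 21 of all 86 IDs some tested rows were called higher in GB and others higher in IL. In 34 IDs all called rows were higher in GB, in 18 higher in IL, and in 13 no row was called. Of all rows tested, 22.4% were called higher in GB and 21.9% higher in IL. Like counts over other IDs with several rows are not given here, so these counts do not set the 86 IDs apart.

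Summing all rows of an ID gave its total, whichever row carried it. The total differed between clones in 59 of the 86 IDs, 39 higher in GB and 20 in IL (edgeR adjusted p under 0.05), against 42.2% of all 4628 IDs tested. At an unadjusted p under 0.05 there were 60 of the 86 and 49.1% of all, and DESeq2 called 59 of the 86 and 44.6% of all. The median size of the log2 difference was 0.87 for these totals. An ID could enter the set through a row read in 1 clone alone. Examples are KZS03412, at 17.2 CPM in GB and 0.257 in IL, and KZS18243, at 0.197 and 17.7 CPM. The totals of such IDs differ through that row, and the 42.2% is not held to the limit, so the count of 59 depends on it. The 39 of 57 IDs for the division of reads was likewise not set against IDs held to the limit. Of the 57 IDs with 2 or more tested rows, 26 differed both in total and in the division among rows, 13 in the division without passing in the total, 15 in the total without passing in the division and 3 passed in neither. The like split over other IDs is not given here.

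The row with most reads was not the same in GB and IL in 17 of these 57 IDs, and the division of reads passed the test in 14 of the 17. In 9 of the 17 the shares of both leading rows were apart in all libraries. Some of the 17 IDs were hardly read in 1 clone, so few reads set the leading row there. KZS03446 and KZS03769 totalled 0.132 and 0.323 CPM in GB, and KZR97478 totalled 0.22 CPM in IL. In KZS03769, which passed the test, the leading row in GB held 0 to 100% of the reads by GB library. The like count of changed leading rows over other IDs is not given here. KZS20690 had the widest gap between rows. KZS20690_2 held 90.5% ± 1.34 of its ID's reads in GB and 4.71% ± 3.83 in IL (SD, n = 11 each), while KZS20690_3 held 8.85% ± 1.13 in GB and 63% ± 5.54 in IL. The level of KZS20690_3 itself was 16.5, 20.2 and 24.8 CPM in GB (lowest, median, highest) and 19.9, 28.5 and 35.6 CPM in IL, which overlap. The fitted difference on the log2 scale was -0.53 ± 0.0775 (SE, adjusted p = 7.94e-06). KZS20690_4 measured 0.374, 0.71 and 2.12 CPM in GB and 10.4, 13.9 and 18.1 CPM in IL, lower in every GB library, by -4.00 ± 0.237 on the log2 scale (SE, adjusted p = 8.21e-12). The ID as a whole was at 228 ± 25.5 CPM in GB and 45.2 ± 4.87 CPM in IL (SD, n = 11), 2.32 ± 0.0611 apart on the log2 scale (SE, adjusted p = 1.39e-16).

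In 5 of the 17 IDs the leading row was another while the total did not pass, and these are named here after their values were seen: KZR95980, KZS00352, KZS09240, KZS10441 and KZS22084. In KZR95980 the rows were nearly tied in GB, with 24% ± 4.34 of the reads in KZR95980_6 and 23.1% ± 3.09 in KZR95980_5. In IL they held 22.9% ± 3.91 and 30.1% ± 4.84 (SD, n = 11). The level of KZR95980_6 did not pass between the clones (log2 difference -0.02 ± 0.171 SE, edgeR adjusted p = 0.944). KZS10441_14 measured 1.3, 2.12 and 4.98 CPM in GB (lowest, median, highest) and 0, 0 and 0.236 CPM in IL, without overlap. KZS10441_20 measured 0, 0.388 and 1.02 CPM in GB and 0.157, 2.32 and 4.99 CPM in IL, with overlap. Their log2 differences were 5.84 ± 0.49 and -2.27 ± 0.46 (SE, adjusted p = 2.06e-09 and 0.000326). The total of the ID was 3.19 ± 0.964 CPM in GB and 2.61 ± 1.4 CPM in IL, 0.3 ± 0.252 apart in log2 (SE, adjusted p = 0.362). In KZS09240 the pair was KZS09240_2, at 1.7 ± 1.08 CPM in GB and 0.324 ± 0.182 in IL, and KZS09240_3, at 0.0624 ± 0.119 and 1.94 ± 0.863 (SD, n = 11). Its total differed by -0.38 ± 0.299 (log2, SE, adjusted p = 0.332). These totals rest on few reads, and their intervals do not show that the clones were alike.

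Further pairs of rows, also named after their values were seen, are given here. In KZS01042 the leading rows were opposite in level and the clones did not overlap in either. KZS01042_3 measured 1.32, 2.13 and 2.8 CPM in GB (lowest, median, highest) and 0, 0.217 and 0.692 CPM in IL, while KZS01042_4 measured 0.15, 0.554 and 0.944 CPM in GB and 4.17, 6.17 and 9.26 CPM in IL. The log2 differences were 3.16 ± 0.298 and -3.46 ± 0.211 (SE, adjusted p = 1.25e-08 and 1.27e-11). KZS22084 and KZS00352 also held rows called in opposite directions, though in each of them the row higher in GB overlapped between the clones, with KZS22084_2 higher in GB by 1.07 ± 0.251 and KZS22084_6 lower by -2.99 ± 0.268, and KZS00352_13 higher by 2.00 ± 0.336 and KZS00352_3 lower by -2.02 ± 0.205 (log2, SE, adjusted p from 5.75e-09 to 0.0014).

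In KZS02259 and KZS06464 1 of the leading rows passed and the other did not. KZS02259_1 measured 4.54, 5.56 and 9.38 CPM in GB and 0, 0.0787 and 0.363 CPM in IL, without overlap (log2 difference 5.42 ± 0.348 SE, adjusted p = 2.88e-11). KZS02259_3 measured 1.94, 2.68 and 3.66 CPM in GB and 1.02, 2.35 and 3.62 CPM in IL, and did not pass (0.31 ± 0.2, adjusted p = 0.224). The latter held 31.1% ± 7.2 of the reads of its ID in GB and 94% ± 6.41 in IL (SD, n = 11). In KZS06464 the leading row in IL was KZS06464_4, at 14.5 ± 5.24 against 3.44 ± 1.33 CPM (log2 difference -2.10 ± 0.22 SE, adjusted p = 6.62e-08), beside KZS06464_3 at 4.63 ± 1.66 in IL and 4.84 ± 1.31 CPM in GB (adjusted p = 0.9). KZS06464_2, a row of this ID below the limit, was also higher in IL, at 0.827 ± 0.778 against 0.226 ± 0.216 CPM (log2 difference -1.86 ± 0.559 SE, adjusted p = 0.00968).

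**Figure D3:**
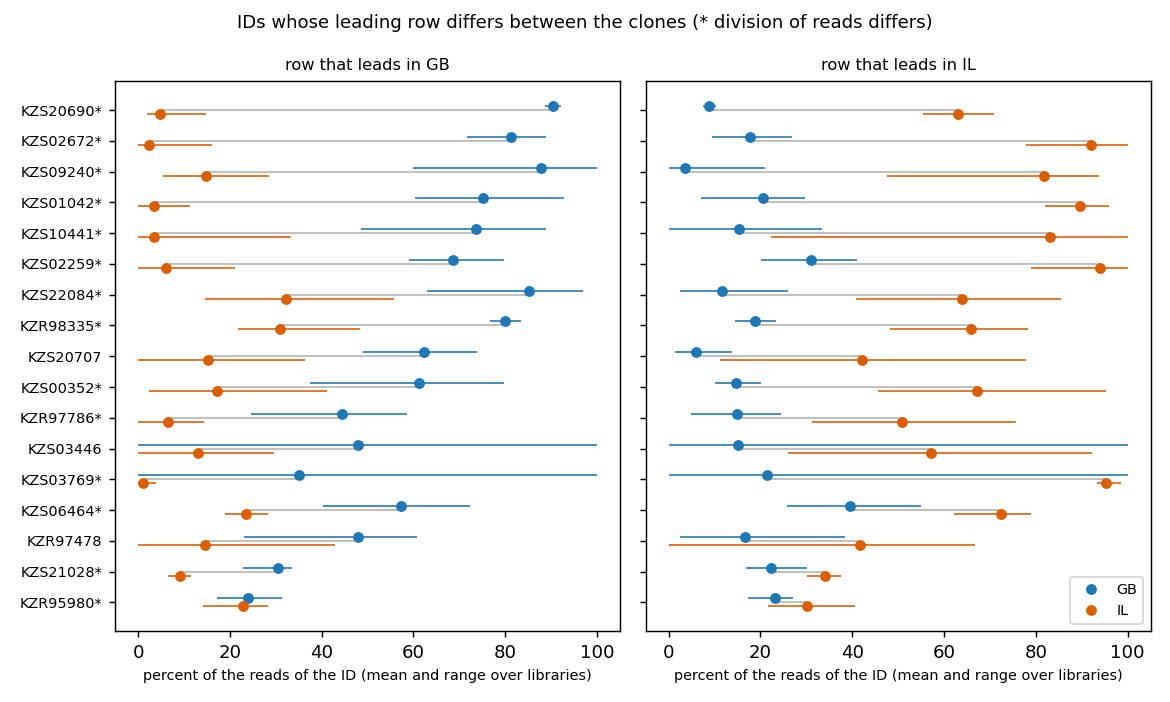
Share of the reads of an ID, in percent, held by the row that leads in GB (left) and by the row that leads in IL (right), for the 17 IDs whose leading row differs, with means as points and the range over the libraries with reads as lines. An asterisk marks the 14 IDs whose division of reads passed the test, and the shares of KZS20690 lie at 90.5% in GB against 4.71% in IL for its GB row.

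The 4 IDs with the most expressed rows showed how copies of an ID varied. KZS00251 stood on 110 rows, of which 55 had reads, 16 were tested and 12 were above the limit. Its total did not pass the test between the clones (430 ± 131 CPM in GB and 444 ± 179 in IL, SD, n = 11, log2 difference -0.07 ± 0.21 SE, adjusted p = 0.829), and its leading row KZS00251_14 held 48.1% ± 14.5 of the reads in GB and 47.3% ± 15.1 in IL. The division of its reads among rows did pass (adjusted p = 1.8e-35), with 6 tested rows higher in GB and 4 in IL. KZS00251_55 measured 3.82, 6.32 and 7.64 CPM in GB (lowest, median, highest) and 0, 0 and 0.0908 CPM in IL, 7.21 ± 0.314 apart in log2 (SE, adjusted p = 8.02e-14). KZS00251_29 was higher in IL, at 23.4 ± 3.58 CPM against 11.3 ± 6.39 in GB (SD, log2 difference -1.14 ± 0.241 SE, adjusted p = 0.000532).

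KZS00251_14 was also among the more variable rows between like-treated females. It ranged from 49.3 to 361 CPM among the 3 IL controls, from 55.4 to 386 among the 3 GB controls and from 168 to 614 in IL CR. It was highest of its group in GB control replicate 2, IL control replicate 3, IL BHB replicate 3, IL CR replicate 1 and GB NMN replicate 1, which are the 5 libraries that lie highest on the first axis of within-group variation over all rows (36.2% of that variation). The part of that axis in the values of this row was not tested.

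KZS21028 stood on 20 rows, 10 of them above the limit. Its total was higher in GB (91.4 ± 10.1 against 57 ± 3.12 CPM, SD, n = 11, log2 difference 0.67 ± 0.0501 SE, adjusted p = 4.04e-10), with 4 rows higher in GB and 1 in IL. The leading row was KZS21028_2 in GB, at 28 ± 4.81 CPM against 5.16 ± 1.01 in IL, and KZS21028_12 in IL, at 19.4 ± 1.8 CPM against 20.2 ± 2.28 in GB. KZS21028_19 was the row higher in IL, at 9.09 ± 1.16 against 4.35 ± 0.733 CPM (log2 difference -1.07 ± 0.111 SE, adjusted p = 4.85e-08).

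KZR97453 stood on 18 rows, 9 above the limit. Its total differed little (166 ± 15.3 CPM in GB and 141 ± 7.75 in IL, log2 difference 0.23 ± 0.0425 SE, adjusted p = 0.000141), and KZR97453_18 led in all 22 libraries, at 62.6 ± 7.22 and 59.9 ± 4.78 CPM. Of its rows, 6 were called higher in GB and 2 in IL, from 2.94 ± 0.229 for KZR97453_10 to -0.47 ± 0.121 for KZR97453_15 (log2 difference, SE, adjusted p = 6.74e-10 and 0.00291).

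KZS18917 stood on 5 rows, all above the limit, and held the most abundant row of the set. KZS18917_4 measured 789, 1428 and 2237 CPM in GB (lowest, median, highest) and 997, 1301 and 1784 CPM in IL, which overlap (log2 difference 0.12 ± 0.133 SE, adjusted p = 0.493). The lesser rows KZS18917_3 and KZS18917_5 were higher in GB by 1.44 ± 0.181 and 1.55 ± 0.211 (log2, SE, adjusted p = 1.33e-06 and 2.69e-06). KZS18917_1, at 1.4 ± 0.467 CPM in IL and 0.712 ± 0.306 in GB, was higher in IL (log2 difference -0.99 ± 0.283 SE, adjusted p = 0.00668).

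**Figure D4:**
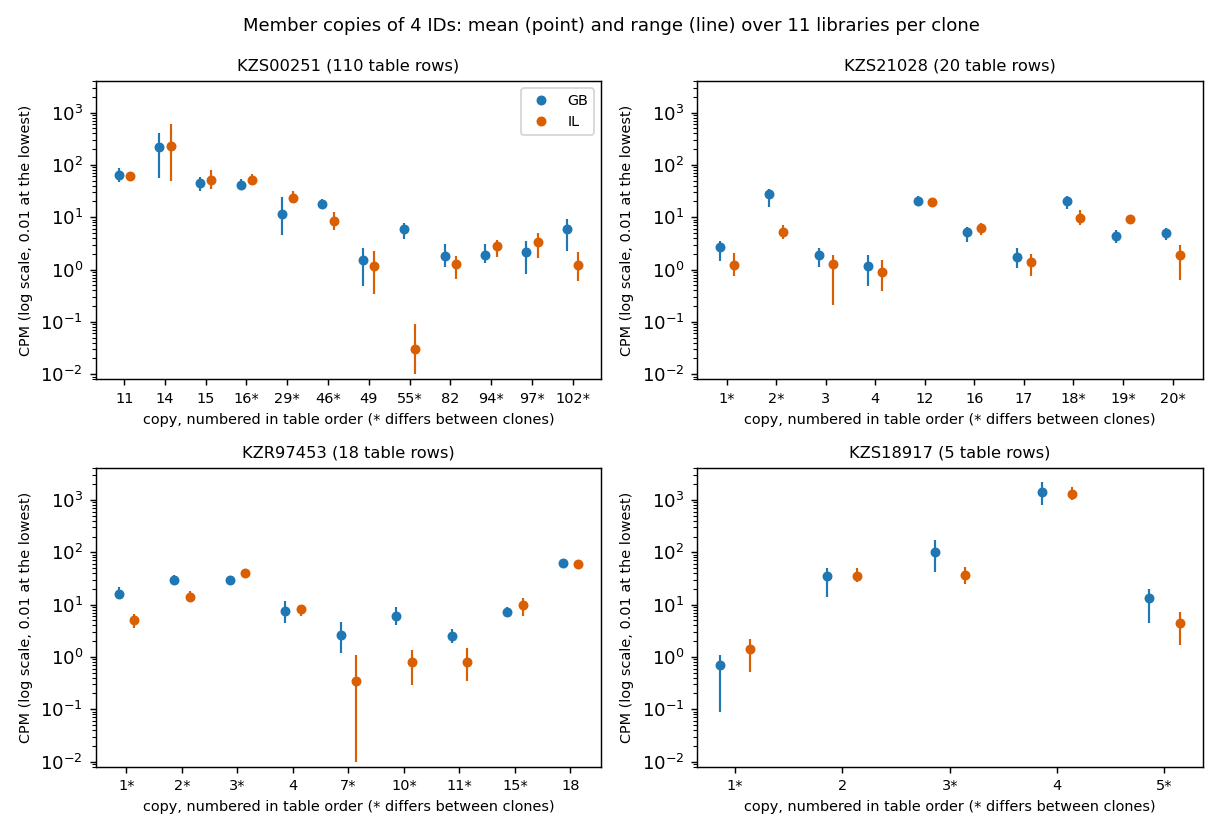
CPM on a log scale of the expressed rows of 4 IDs, numbered in table order, with the mean as a point and the range over the 11 libraries of each clone as a line (values under 0.01 drawn at 0.01). The rows of an ID span up to several orders of magnitude in level, and rows marked with an asterisk (adjusted p under 0.05) lie next to rows of the same ID where the clones overlap.

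KZS10294 entered the set through 1 row, KZS10294_1, which was higher in IL (174 ± 29.7 against 127 ± 26.2 CPM, SD, n = 11, log2 difference -0.47 ± 0.127 SE, adjusted p = 0.00508). A row of the same ID below the limit, KZS10294_4, had 197 reads in GB and 0 in IL, at least 64.7-fold higher in GB with 3 reads over the IL libraries as the floor. KZR97816 stood on 697 rows, the most of any ID, of which 20 had reads, with 317 counts in all libraries together and no row above 0.747 CPM on average.

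The order of the table was looked at for the place of the rows. The 1289 rows named by gene-model ID follow the order of gene finder and contig without a step back (0 descents), and 83 of the 164 rows lie between neighbours of 1 finder and contig. Of 14 IDs with 2 or more such rows, 9 had each row between neighbours of a different finder or contig. In 2 of the 14 all such rows lay between neighbours of the same finder and contig, though they need not be adjacent. A row of the same ID stood directly before or after 9 of the 164 rows. Positions themselves are not given in the file.

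The CR comparison asks which rows differ between restricted and fully fed females. None of the 164 rows passed in edgeR (0 against 3.36% of all 4965 rows, 2.05% higher and 1.31% lower), with 24 at an unadjusted p under 0.05 (14.6%, against 17.6% of all rows) and a smallest adjusted p of 0.0742. DESeq2 called 6 of the 164 rows (3.66%) and 6.91% of all rows. Its smallest adjusted p among the 6 belonged to KZS03769_7 (0.00682, log2 difference 0.91), which measured 9.99 to 11.7 CPM in IL control and 18.1 to 26.8 CPM in IL CR, with 5 reads in all of GB. The median size of the log2 difference was 0.21 in the 164 rows and 0.2 in all rows, with a median SE of 0.28 and 0.22. For 102 of the 164 rows (62.2%, against 62.7% of all rows) the 95% interval lay within a 2-fold change in either direction. For the other rows it reached past this. The totals of the 86 IDs gave 0 calls in edgeR (background 3.52%; 13 at an unadjusted p under 0.05, or 15.1%, against 18.2% of all IDs) and 4 in DESeq2 (4.65%, against 7.45% of all IDs). The division of reads among rows gave 0 calls in 57 IDs (background 0.376%). At an unadjusted p under 0.05 there were 4 of the 57 IDs, against 11 of all 266 IDs. All CR libraries and no others carry library numbers 17 to 22, so a step shared by these libraries cannot be told apart from the diet. The TMM factors that scale the library totals were 1.09 to 1.13 in GB CR and 0.923 to 0.971 in GB control, and 0.989 to 1.05 in IL CR and 0.946 to 1.003 in IL control. CPM values are not corrected by them and fitted differences are. With library totals alone, an alternative added after seeing the data, the median log2 difference of all rows in CR was 0.16 (0.25 within GB and 0.07 within IL), and 7 of the 164 rows passed. The share of all rows that passed under this setting is not given here, so the 7 rows cannot be set against it.

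The rows closest to the threshold did not pass. KZS01811_9 measured 0.581, 1.27 and 0.627 CPM in the GB controls and 7.57, 2.33 and 1.44 CPM in GB CR (replicates 1, 2 and 3). In IL it measured 2.46, 1.69 and 3.15 CPM in control and 3.03, 4.27 and 4.08 CPM in CR, where the groups overlap. Its log2 difference was 1.24 ± 0.379 (SE, n = 6 and 6, edgeR adjusted p = 0.0742), and GB CR replicate 1 was the highest library. Without that library the log2 difference was 0.71, and with library number as a term it was 0.27 (edgeR adjusted p = 0.206 and 0.95). The CR libraries hold the highest library numbers, so that term overlaps with the diet and can take up part of its difference. KZS07592_4 measured 2.76, 2.4 and 2.44 CPM in the GB controls and 1.97, 0.872 and 1.63 CPM in GB CR. In IL it measured 0.82, 0.773 and 1.1 CPM in control and 0.268, 0.727 and 0.608 CPM in CR. All CR libraries lay below the controls of their clone, by a log2 difference of -0.92 ± 0.282 (SE, edgeR adjusted p = 0.0769). DESeq2 called both rows (adjusted p = 0.0266 and 0.0358), and over all alternatives the adjusted p ran from 0.0266 to 0.95 for KZS01811_9 and from 0.0358 to 0.34 for KZS07592_4.

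BHB and NMN were compared with the same controls, so these comparisons share control libraries with CR. In BHB 0 of the 164 rows passed in edgeR (background 0%; 6 at an unadjusted p under 0.05, or 3.66%, against 3.04% of all rows) and 0 in DESeq2. In NMN 0 passed in edgeR (background 0%; 5 at an unadjusted p under 0.05, or 3.05%, against 5.16% of all rows) and 0 in DESeq2 (background 0.0806%). The totals of the 86 IDs gave 0 calls by either tool in either treatment (edgeR background 0% in both, DESeq2 background 0% in BHB and 0.0864% in NMN). The division of reads gave 0 in both (background 0%). Its counts at an unadjusted p under 0.05 were 0 IDs in BHB and 1 in NMN, against 0 and 1 of all 266 IDs. At an unadjusted p under 0.05 there were 4 of the 86 totals in BHB (4.65%, against 3.13% of all IDs). In NMN there were 3 (3.49%, against 5.27% of all IDs). The 95% interval lay within a 2-fold change for 111 of the 164 rows in BHB (67.7%, against 68% of all rows) and 93 in NMN (56.7%, against 64%).

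The smallest p in each direction belonged to rows that did not pass. In BHB, KZR95980_10 measured 4.43 ± 0.798 CPM in GB against 2.64 ± 0.556 in control and 6.69 ± 2.03 in IL against 5.8 ± 1.5 (SD, n = 3 each, log2 difference 0.47 ± 0.188 SE, edgeR adjusted p = 0.999). KZS02934_5 had the smallest p on the lower side in both treatments. It measured 0.991 ± 0.136 CPM in GB control, 0.467 ± 0.0699 in GB BHB (n = 3) and 0.254 and 0.73 in the GB NMN females. In IL it measured 2.65 ± 0.459 CPM in control, 2.07 ± 0.664 in BHB and 1.15 and 1.56 in the NMN females. Its log2 differences were -0.63 ± 0.265 in BHB and -1.07 ± 0.309 in NMN (SE, edgeR adjusted p = 0.999 and 0.818). On the higher side in NMN, KZS04855_3 measured 25.3 and 34.1 CPM in GB and 33 and 50.4 in IL, against 25.4 ± 7.7 and 25.7 ± 0.463 CPM in control (SD, n = 3, log2 difference 0.38 ± 0.172 SE, edgeR adjusted p = 0.937).

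**Figure D5:**
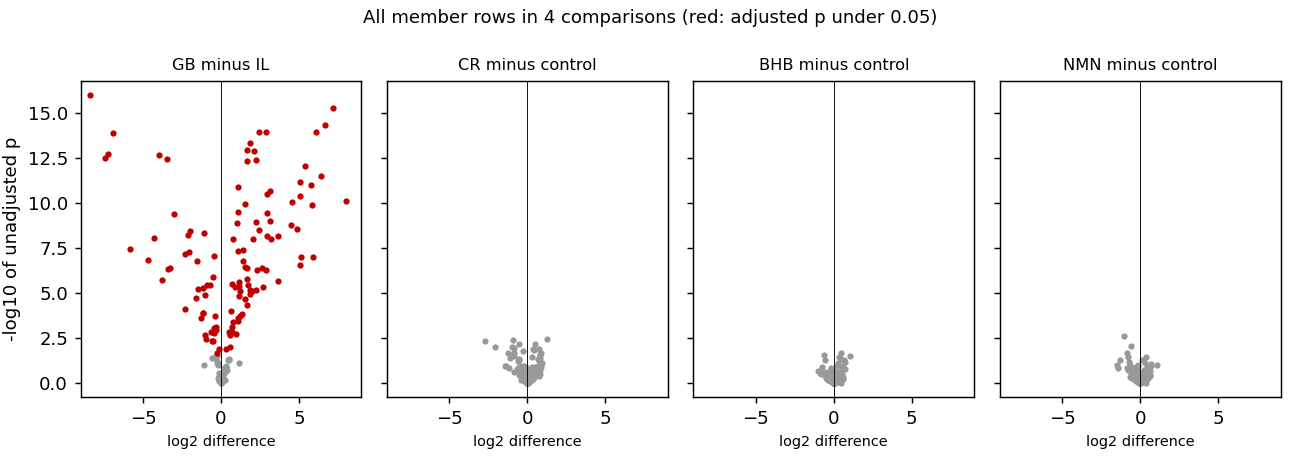
Log2 difference of the 164 rows (horizontal) against -log10 of the unadjusted p (vertical) for GB minus IL and for CR, BHB and NMN minus control, with rows past an adjusted p of 0.05 in red. There are 118 red points in the clone panel and 0 in the other panels.

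Whether the clones responded differently was tested as an interaction. None of the 164 rows passed for CR, BHB or NMN (0 in edgeR for each, background 0%). At an unadjusted p under 0.05 there were 13 rows for CR (7.93%, against 8.28% of all rows), 16 for BHB (9.76%, against 7.59%) and 5 for NMN (3.05%, against 3.1%). The smallest p belonged to KZS00251_15 for CR and BHB and to KZS06366_2 for NMN. KZS00251_15 measured 45, 34.2 and 36.3 CPM in the IL controls and 80.5, 70.3 and 61.2 CPM in IL CR, without overlap. In GB it measured 43.1, 44.2 and 42 CPM in control and 55.2, 44.9 and 49.7 CPM in CR, also without overlap. After TMM scaling the GB values overlapped, at 44.4 to 47.9 in control and 39.5 to 48.8 in CR, and the IL values did not, at 34.1 to 46.2 and 61.8 to 77. Within IL it was the 1 row of the set that passed (log2 difference 0.79 ± 0.128 SE, edgeR adjusted p = 0.0173, against 61 of all 4965 rows, or 1.23%), against -0.04 ± 0.127 in GB (adjusted p = 0.953). The GB direction turned with library totals alone, to 0.21 (adjusted p = 0.352), and without GB CR replicate 2, to 0.042 (adjusted p = 0.966). In GB 0 of the 164 rows and 1.03% of all rows passed (16 of the 164 at an unadjusted p under 0.05). With IL control replicate 2 left out it no longer passed (adjusted p = 0.093), nor with the 5 libraries named above left out (adjusted p = 0.0624). Over all alternatives the adjusted p ran from 0.00776 to 0.093. The difference between clones did not pass (-0.83 ± 0.18 SE, adjusted p = 0.144). For BHB its interaction was -0.62 ± 0.181 (adjusted p = 0.613), and for NMN that of KZS06366_2 was -1.60 ± 0.502 (adjusted p = 1).

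The clone differences were also read within each treatment in a fit with 8 group means. Control animals gave 95 of the 164 rows (26.9% of all rows), CR animals 86 (23.2%), BHB animals 83 (24.2%) and NMN animals 73 (19%). Animals per group were fewest in NMN, at 2 per clone.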

How the data were processed

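The deposited values are raw counts of reads on the sense strand, per the labels, from a directional kit. FastQC, Trim Galore 0.4.5, STAR and DESeq2 are named in the submitters' processing notes. The read counter, with its build and gene annotation, is not given in the sources used here. Groups were read from title letters, L being taken as CR by elimination. No ID matched the RefSeq gene table.

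Rows passed edgeR's filterByExpr over 8 groups (minimum count 10, minimum total 15), 4965 in all and 164 of the 164 members. TMM-scaled counts were fitted with robust quasi-likelihood F tests (edgeR 4.0.16, R 4.3.3), with clone and treatment as terms over 22 libraries, or as 8 group means for interactions and values within a clone or treatment. Benjamini-Hochberg adjustment ran over all rows or IDs tested. Each SE was derived from the log2 difference and its F statistic. ID totals were fitted after summing rows, and the division of reads with diffSpliceDGE (Simes p per ID). Fits were also run on counts simulated from the fitted model with planted differences, which cannot show that the model suits these data. Alternatives were DESeq2 1.42.0, other size factors, library totals alone, no low-count filter, an adjusted p of 0.1, replicate number as a block, library number as a term and each library left out.

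Named rows follow a written rule: the 4 IDs with most expressed rows and the ID on most rows, the most abundant row, rows beside the limit, per comparison the 2 largest called differences each way at 5 CPM or more (otherwise the smallest p), the 4 IDs with the widest gap between oppositely called rows, and the smallest interaction p. The members and lists were chosen with earlier results of these data known. Animals given BHB and NMN together were not analysed here.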

Additional observations from a re-analysis of the deposited data

How the results depend on the processing

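The count of rows that differed between clones was 113 to 124 over 9 other settings and 115 to 120 with each library left out, that of ID totals 55 to 60 and 58 to 62. The count of IDs with a different division of reads was 37 to 49 with each library left out, 33 with a filter of 1 CPM in 6 libraries, where fewer rows enter the test, and 63 with no low-count filter, where more do.

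The CR count of 0 rows became 6 with DESeq2, 3 at an adjusted p of 0.1 (KZS01811_9, KZS07592_4 and KZS05677_3), 1 with replicate number as a block (KZS05677_3), 7 with library totals alone and 2 without the 5 libraries highest on the within-group axis (KZS01811_9 and KZS08163_1), the last pair of alternatives being chosen after seeing the data. It was 0 to 1 with each library left out, the 1 being KZS10294_1 without GB BHB replicate 3 or IL CR replicate 3. The CR count of 0 ID totals became 4 with DESeq2, 4 at an adjusted p of 0.1, 6 with library totals alone and 2 without the 5 libraries (KZS01811 and KZS10178), and 0 to 1 with each library left out: KZS10178 without IL CR replicate 1, without IL BHB replicate 3 and without IL control replicate 2, KZR95947 without GB control replicate 1, KZS00352 without IL CR replicate 2 and KZS10294 without IL CR replicate 3. The CR division of reads was 0 to 1 with each library left out, the 1 without GB control replicate 1. The cause of these changes was not tested. The share of all rows or IDs called under the same setting is given for DESeq2 alone, at 6.91% of rows and 7.45% of IDs. For the other settings, and for the counts within IL below, it is not given. These counts therefore do not show a gain in the set beyond that of all rows. For CR within IL the count of 1 row became 3 at an adjusted p of 0.1, 2 with the replicate block, 2 with library totals alone, 2 without IL CR replicate 1, 0 without IL control replicate 2 and 0 without the 5 libraries. The CR difference of KZS00251_15 within GB, -0.04, was -0.11 to 0.042 with each library left out and 0.21 with library totals alone. BHB, NMN and interaction counts were 0 under every alternative run. Interactions were not run with DESeq2 or library number, nor the division of reads with DESeq2.

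Libraries of a clone with the same replicate number deviated from their group means with a mean correlation of 0.00499 over 30 pairs (-0.485 to 0.537), 8 of them over 0.1. Pairs of different number had a mean correlation of -0.000522 over 60 pairs (-0.491 to 0.552), 18 of them over 0.1. Of the 22 libraries, 9 lay closest to their own number. With values this close for both kinds of pair, the numbers were not taken to pair the females. With the replicate block 116 rows differed between clones. Rows near 1 CPM rest on about 10 reads per library, which limits their precision.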
